A study of Homo sapiens with 24 samples.

Results

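A549 cells treated with an extract of Pulsatilla chinensis were compared directly with A549 cells treated with an extract of Bupleurum chinense, without reference to the control libraries. The members were all genes with a mean estimated count above 5 over the 3 P. chinensis and 3 B. chinense libraries, which gave 13601 of the 14585 genes in the table. A549 is a human lung adenocarcinoma line labelled WT in the series. The series also holds 3 control libraries and 3 libraries of cells treated with Polyporus umbellatus for this line, and the same 4 groups for Huh7, a human hepatoma line, 24 libraries in all. The paper describes A549 as p53 wild-type and Huh7 as carrying mutant p53. The extracts were made with aqueous ethanol, freeze-dried and dissolved in DMSO, and all are mixtures of compounds. The dose and time behind the sequenced RNA, and what the control cells received, are not given in the sources used here. Nothing in the labels says that the replicates came from separate cultures, so p-values measure only the spread between these samples, which may be technical.

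The comparison asks in which transcripts cells treated with these herbs differ from each other. A few regulatory systems recur among the genes described. Immediate early genes such as EGR1 and the FOS and JUN families are transcribed within minutes of a stimulus, without new protein synthesis, and their products form transcription factors, AP-1 among them. NF-kB is held in the cytoplasm until its inhibitors are degraded, and then induces chemokines, its own inhibitors and survival genes such as BIRC3. Replication-dependent histone genes are transcribed in S phase, end in a stem-loop in place of a poly(A) tail, and supply the histones that package newly made DNA. p53 induces CDKN1A and its own antagonist MDM2 and, through CDKN1A and the DREAM complex, lowers genes of the cell cycle. The library kit depletes ribosomal RNA and does not select for poly(A), so transcripts without a poly(A) tail were also read.

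With P. chinensis, 13 genes were higher than with B. chinense (0.0956% of the genes tested) and 20 were lower (0.147%), taking an adjusted p below 0.05 (edgeR, quasi-likelihood, Benjamini-Hochberg). The genes that were higher were led by FOSB and EGR1, immediate early transcription factors, followed by WDR90, a low-count gene, the chemokine gene CXCL8, and NF-kB targets and cell-surface genes with smaller differences. Of the 20 genes that were lower, 6 were replication-dependent histone genes, and MSH6, ATAD5, TK1 and CDC25B act in DNA replication, repair or cell cycle entry. Most of the differences were small. The median log2 difference was 0.57 over the genes called higher and −0.52 over those called lower, and only FOSB, EGR1, WDR90 and CXCL8 passed a log2 difference of 1 in either direction.

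Upstream sequences are shown for 4 of the called histone genes and for the immediate early pair, because these are the families at the ends of the comparison. They are the 150 bases before the gene's start in RefSeq (GRCh38.p14), printed 5′ to 3′ on the gene's own strand. Capitals mark matches, on either strand, to the CCAAT box (CCAAT), the octamer (ATTTGCAT), the TATA box (TATAAA) and a part of the serum response element (CCATATNAG, with N any base).
H2BC17, chr6:27893275-27893424, plus strand: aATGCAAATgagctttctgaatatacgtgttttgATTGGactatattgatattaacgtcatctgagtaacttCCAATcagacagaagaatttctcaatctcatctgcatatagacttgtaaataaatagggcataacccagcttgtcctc
H2BC18, chr1:149812371-149812520, minus strand: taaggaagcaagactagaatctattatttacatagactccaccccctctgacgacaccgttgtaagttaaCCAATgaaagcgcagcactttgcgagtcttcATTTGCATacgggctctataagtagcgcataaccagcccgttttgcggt
H3C2, chr6:26032100-26032249, minus strand: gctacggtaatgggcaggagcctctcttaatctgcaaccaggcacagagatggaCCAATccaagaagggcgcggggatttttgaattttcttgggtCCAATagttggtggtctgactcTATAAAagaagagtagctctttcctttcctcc
H4C4, chr6:26189113-26189262, minus strand: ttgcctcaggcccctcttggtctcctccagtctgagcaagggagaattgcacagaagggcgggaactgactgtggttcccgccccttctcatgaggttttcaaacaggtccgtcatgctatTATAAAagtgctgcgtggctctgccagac
EGR1, chr5:138465329-138465478, plus strand: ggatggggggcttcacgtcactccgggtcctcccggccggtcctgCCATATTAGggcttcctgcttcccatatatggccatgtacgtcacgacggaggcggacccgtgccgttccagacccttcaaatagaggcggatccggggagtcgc
FOSB, chr19:45467846-45467995, plus strand: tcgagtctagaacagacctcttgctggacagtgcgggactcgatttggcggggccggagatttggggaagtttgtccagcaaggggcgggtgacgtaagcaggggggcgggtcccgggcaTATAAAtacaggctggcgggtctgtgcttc

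The H2BC17 sequence lies between the starts of H2AC17 and H2BC17, neighbouring histone genes transcribed away from each other, and both were among the genes called lower. Promoters were matched by symbol for 11033 of the 13601 genes, and 250 bases before the start were searched on both strands. The octamer stood in 19 of 48 histone promoters (39.58%) and in 5 of the 17 matched promoters of genes called lower (29.41%), against 1.405% of all 11033. The TATA box stood in 70.83% of histone promoters and 41.18% of those of genes called lower, and in 3 of 11 of those of genes called higher (27.27%), against 5.801% of all. The CCAAT box stood in 85.42% and 64.71%, against 35%. Since histone genes are among the genes called lower, these shares overlap. The part of the serum response element stood in 0.2538% of all promoters and in 1 of the 11 matched promoters of genes called higher, that of EGR1, and also in 1 of the 17 of genes called lower (5.882%) and 2 of the 48 histone promoters (4.167%). The letters GGACTTTCC, a single form of the NF-kB site, stood in 0.3354% of all promoters and in none of those 11. A match this rare would be absent from most sets of 11, so its absence says nothing about NF-kB sites there.

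The libraries compared held between 6803704 and 10570251 counts, the lowest being replicate 3 of B. chinense. On the leading principal component of the 6 libraries, which held 29.4% of the variance, the P. chinensis libraries lay between 36.5 and 80.7 and the B. chinense libraries between −86.3 and −30.5. Replicates differed by more than sampling noise and none was a copy of another. Of the lung epithelial markers 8 of 16 were in the table, and their summed level was 7001 to 7649 CPM (counts scaled to the same library size after TMM normalization) with P. chinensis and 7183 to 7287 CPM with B. chinense. The alveolar markers NKX2-1 and SFTPC were not among them. The summed levels of hepatocyte, fibroblast, leukocyte and endothelial markers were at most 106 CPM in any of these 6 libraries, and none of their tested members was called by edgeR or by DESeq2 (unadjusted p below 0.05 for 1 hepatocyte and 1 endothelial marker).

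**Figure D1:**
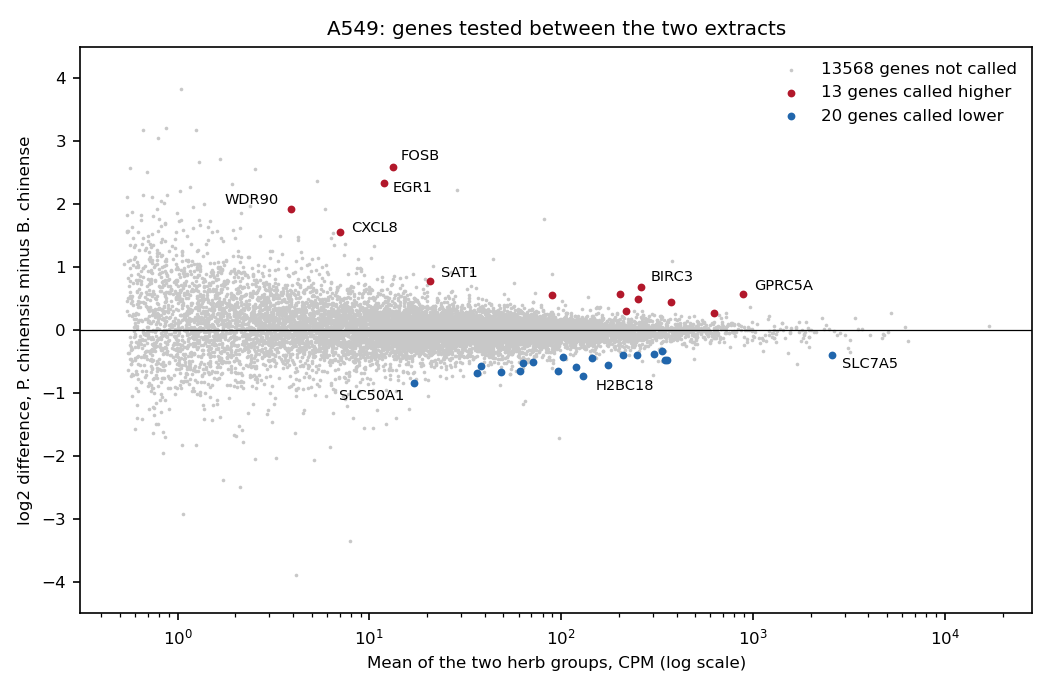
Each point is a gene, with the mean of both herb groups in CPM on a log scale and the log2 difference, P. chinensis minus B. chinense, on the vertical axis (8 genes lie beyond the range drawn). The 13 genes called higher and the 20 called lower are coloured, and only 4 of them lie beyond 1 in either direction.

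Across all genes the median log2 difference was −0.00, 6775 of 13601 differences were positive, and the median absolute difference (0.125) was about the size of the median standard error (0.128). Beyond the 33 genes called, 809 genes were higher and 1012 lower at an unadjusted p below 0.05. The groups did not overlap, with all P. chinensis libraries above all B. chinense libraries, for 1288 genes (9.47%), and the reverse held for 1376 (10.1%). All 33 called genes are in these sets. The number of calls moved with the tool and with single libraries. DESeq2 called 93 genes higher and 194 lower, among them all 33, and edgeR with all 12 A549 libraries in the fit called 62 and 133. With edgeR, leaving out replicate 1 of P. chinensis or replicate 2 of B. chinense left no gene at an adjusted p below 0.05 (701 higher and 949 lower, and 813 higher and 870 lower, at an unadjusted p below 0.05), and leaving out replicate 3 of B. chinense left 2 higher and 0 lower (750 and 818 unadjusted). Without replicate 1 of B. chinense there were 2 higher and 3 lower calls, without replicate 3 of P. chinensis 7 and 8, and without replicate 2 of P. chinensis 12 and 13. The direction of all 33 called genes was the same in each of these fits. Since their groups did not overlap, leaving out 1 library could hardly have reversed it, so the kept direction adds little.

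Among immediate early genes, FOSB, an AP-1 subunit (chr19:45467995-45475179), measured 17.2, 15.3 and 35.7 CPM with P. chinensis and 3.20, 4.88 and 3.08 CPM with B. chinense. The lowest P. chinensis library was more than 3 times the highest B. chinense library, and the third replicate stood above the other two. The log2 difference was 2.60 ± 0.35 (SE, edgeR adjusted p = 0.0259). FOSB was at 0.558 ± 0.375 CPM (SD, n = 3) in control cells and at 3.08 ± 0.26 CPM with P. umbellatus, so the B. chinense level was near that of P. umbellatus.

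EGR1, a zinc finger transcription factor (chr5:138465479-138469303), measured 14.9, 15.02 and 29.8 CPM with P. chinensis and 3.87, 3.91 and 4.11 CPM with B. chinense. As with FOSB, the groups did not overlap and replicate 3 of P. chinensis was the highest library. The log2 difference was 2.33 ± 0.30 (SE, edgeR adjusted p = 0.0217). Control cells held 1.46 ± 0.24 CPM and P. umbellatus cells 2.41 ± 0.99 CPM. Without replicate 3 of P. chinensis the log2 differences were 1.92 for EGR1 and 2.11 for FOSB, both still past the threshold, as they were without replicate 2 of P. chinensis. Both lost their call in each of the other 4 fits that left out a library, with edgeR adjusted p of 0.0619 to 0.115 for FOSB and 0.0515 to 0.0860 for EGR1.

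Of the 27 immediate early and AP-1 genes tested, edgeR called these 2 higher and none lower, against 0.0956% of all genes called higher, 22 differences were positive, and the median log2 difference was 0.26 against −0.00 over all genes. At an unadjusted p below 0.05, 12 were higher and 1 lower (5.95% and 7.44% of all genes), and DESeq2 and the fit of all 12 A549 libraries each called 6 higher (0.684% and 0.456% of all genes). FOSL2, another AP-1 subunit, was at 423 to 440 CPM with P. chinensis and 341 to 376 CPM with B. chinense (log2 difference 0.26, edgeR adjusted p = 0.0649). ATF3, a stress-induced factor of the same class, was at 7.81 to 16.1 CPM against 4.69 to 6.07 CPM (1.13, adjusted p = 0.112). FOS itself was at 8.31 to 11.5 CPM against 6.19 to 6.60 CPM, both below the control mean of 12.2 CPM (0.63, adjusted p = 0.193). JUN overlapped between the groups, at 60.2 to 94.8 CPM and 64.4 to 72.2 CPM. NR4A1, an orphan nuclear receptor, stood lower with either herb than in control cells (48.8 ± 2.3 CPM), with 16.7 to 21.9 CPM with P. chinensis and 10.6 to 17.6 CPM with B. chinense.

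**Figure D2:**
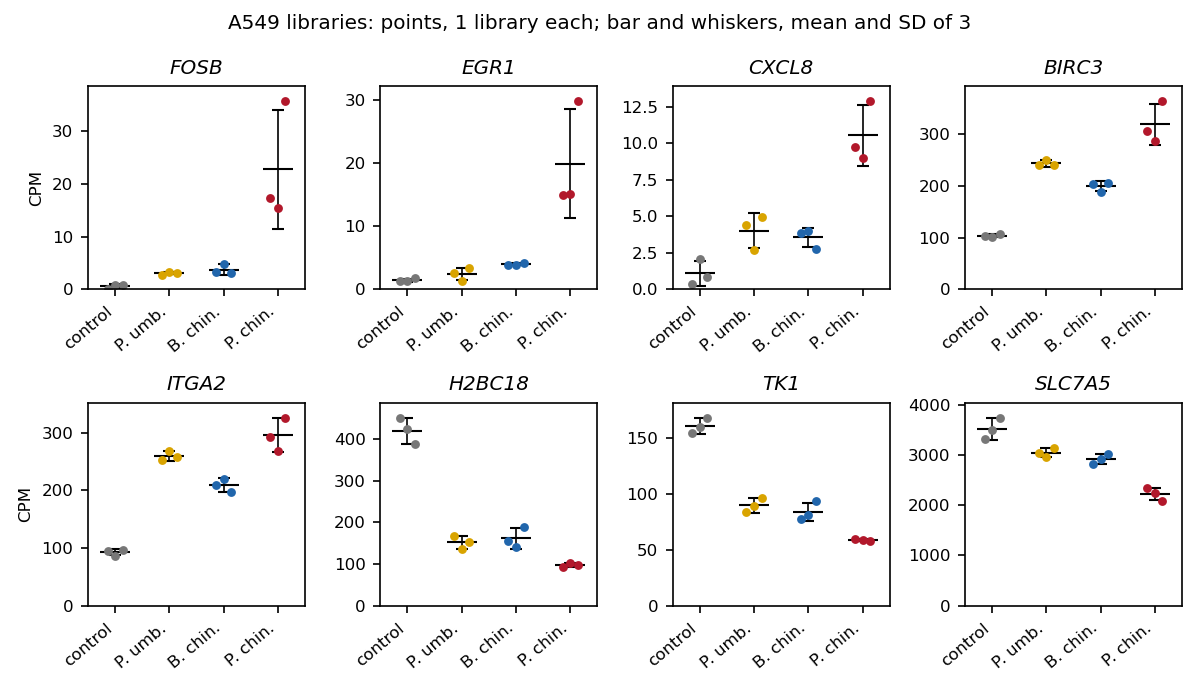
CPM on a linear scale in each A549 library for 8 called genes, 1 panel a gene, with control, P. umbellatus, B. chinense and P. chinensis from left to right. Bars and whiskers are the mean and SD of 3 libraries. The P. chinensis points lie above all B. chinense points for FOSB, EGR1, CXCL8, BIRC3 and ITGA2 and below them for H2BC18, TK1 and SLC7A5.

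The NF-kB group followed. CXCL8 encodes interleukin-8, a chemokine that attracts neutrophils (chr4:73740519-73743716), and measured 9.73, 9.01 and 12.9 CPM with P. chinensis against 3.87, 4.01 and 2.79 CPM with B. chinense. All P. chinensis libraries were above all B. chinense libraries, although the counts behind these values were low. The log2 difference was 1.56 ± 0.24 (edgeR adjusted p = 0.0382), with 1.10 ± 0.86 CPM in control cells. With all 12 A549 libraries in the fit its adjusted p was 0.0508.

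BIRC3, a ubiquitin ligase of the inhibitor of apoptosis family (chr11:102317484-102339403), measured 307, 287 and 364 CPM with P. chinensis and 204, 189 and 206 CPM with B. chinense. The groups were well apart, and both exceeded the control mean of 103 ± 3 CPM. The difference was 1.60-fold (log2 0.68 ± 0.08, edgeR adjusted p = 0.0217). CXCL5, a chemokine closely related in action to CXCL8, measured 226, 245 and 256 CPM against 163, 177 and 149 CPM (1.48-fold, adjusted p = 0.0217). For CXCL5 the control mean of 185 ± 6 CPM lay between these 2 herbs, above every B. chinense library and below every P. chinensis library. With P. umbellatus it was at 233 ± 5 CPM, within the range of the P. chinensis libraries.

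Of 34 NF-kB targets, chemokines and cytokines tested, edgeR called these 3 higher and none lower, against 0.0956% of all genes called higher, 29 differences were positive, and the median log2 difference was 0.31. At an unadjusted p below 0.05, 18 were higher and 1 lower (5.95% and 7.44% of all genes). DESeq2 called 8 higher (0.684% of all genes) and the fit of all 12 A549 libraries 3 (0.456%). TNFAIP3, a feedback inhibitor of the pathway, was at 14.1 to 22.0 CPM with P. chinensis and 8.80 to 11.2 CPM with B. chinense (log2 difference 0.81, edgeR adjusted p = 0.125). IL32, a cytokine, was at 6.91 to 11.2 CPM against 1.76 to 5.97 CPM (1.47, adjusted p = 0.144). The subunit genes moved less. NFKB2 was at 171 to 188 CPM against 139 to 155 CPM (0.25, adjusted p = 0.128). RELA, the main activating subunit, was at 93.4 to 98.6 CPM against 89.4 to 98.6 CPM, and NFKB1 overlapped as well, at 37.6 to 42.5 CPM against 25.7 to 48.9 CPM.

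The other genes called higher encode mostly proteins of the cell surface, the matrix or membrane traffic. GPRC5A, an orphan receptor induced by retinoic acid and abundant in lung epithelium, measured 1045, 1070.2 and 1082 CPM with P. chinensis and 776, 738 and 638 CPM with B. chinense (1.48-fold, log2 0.57 ± 0.07, edgeR adjusted p = 0.0217). Its control mean was 720 ± 13 CPM, within the range of the B. chinense libraries. GPRC5A kept its call in 4 of the 6 fits that left out a library, more than any other called gene. Among genes called higher, CXCL8, WDR90, PAPPA, EHD1 and SAT1 kept their call in none of these fits. Among those called lower, the histone genes H2BC17, H2BC18, H3C2, H4C4 and H2AC20 kept it in none. The same was true of TK1, ATAD5, LGR4, LRP5, PTMS, IER5L, SLC50A1 and COL18A1.

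ITGA2, the alpha chain of a collagen-binding integrin, measured 292, 269 and 326 CPM against 209, 220 and 196 CPM (1.42-fold, edgeR adjusted p = 0.0336), with 92.5 ± 5.4 CPM in control cells. CDCP1, a transmembrane glycoprotein phosphorylated by SRC family kinases, measured 103, 102 and 114 CPM against 72.9, 73.2 and 70.7 CPM (1.47-fold, adjusted p = 0.0217), with 47.3 ± 0.6 CPM in control cells. Both genes were therefore lowest in control cells, intermediate with B. chinense and highest with P. chinensis. TGM2, a transglutaminase that crosslinks proteins, measured 459, 411 and 418 CPM against 297, 328 and 320 CPM (1.36-fold, adjusted p = 0.0217), while its control mean of 325 ± 23 CPM was near the B. chinense level.

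PAPPA, a secreted protease that cleaves insulin-like growth factor binding proteins, and EHD1, which acts in endocytic recycling, were called higher with small differences of 1.20-fold (edgeR adjusted p = 0.0382) and 1.24-fold (adjusted p = 0.046). SAT1, which acetylates polyamines, measured 24.1, 25.9 and 29.0 CPM against 16.02, 14.3 and 15.6 CPM (1.72-fold, adjusted p = 0.0457). In SAT1 the B. chinense, control (16.4 ± 1.7 CPM) and P. umbellatus (17.1 ± 2.9 CPM) levels were alike in size, and P. chinensis stood apart. WDR90, a protein of the centriole, fell outside the rule for named genes because of its mean count of 36.7, and is given as 1 of the 4 genes beyond a log2 difference of 1. It held 58, 58 and 64 counts with P. chinensis and 9, 18 and 13 counts with B. chinense, and 13 to 58 counts in the control libraries, which cover nearly the whole range. LAMB3, a chain of a basement membrane laminin, was just outside the threshold (log2 difference 0.46, edgeR adjusted p = 0.058).

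On the lower side, H2BC18 measured 93.0, 103 and 97.0 CPM with P. chinensis and 155, 141 and 189 CPM with B. chinense (log2 difference −0.72 ± 0.10, edgeR adjusted p = 0.0257). Control cells held 420 ± 31 CPM and P. umbellatus cells 153 ± 16 CPM, so every herb library was below control and the P. chinensis libraries were the lowest. H4C4 measured 28.1, 29.8 and 26.4 CPM against 45.9, 40.8 and 48.3 CPM (−0.68, adjusted p = 0.0336), with 122 ± 8 CPM in control cells. H3C2 measured 79.2, 76.9 and 69.2 CPM against 115, 105 and 133 CPM (−0.65, adjusted p = 0.0295), with 330 ± 15 CPM in control cells.

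H2AC17 and H2BC17, which share the upstream region printed above, behaved alike. H2AC17 was at 34.9 to 43.0 CPM with P. chinensis and 54.9 to 64.7 CPM with B. chinense (log2 difference −0.67, edgeR adjusted p = 0.0382), and H2BC17 at 42.2 to 52.7 CPM against 73.8 to 75.1 CPM (−0.64, adjusted p = 0.0257). H2AC20 was the sixth, at 49.7 to 54.5 CPM against 68.3 to 82.7 CPM (−0.53, adjusted p = 0.046). The 6 genes encode H2A, H2B, H3 and H4, and each was at least 1.44 times higher with B. chinense.

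Of 53 replication-dependent histone genes tested, 6 were called lower (11.3% of the list, against 0.147% of all genes) and none higher. Only 3 differences were positive, and the median log2 difference was −0.53. At an unadjusted p below 0.05, 48 were lower and 1 higher (7.44% and 5.95% of all genes). The count of calls depended on the fit, with 30 lower in DESeq2 and 26 lower with all 12 A549 libraries (1.43% and 0.978% of all genes). The summed level of the 53 genes was 2176 to 2360 CPM with P. chinensis, 2920 to 3639 CPM with B. chinense, 2778 to 3361 CPM with P. umbellatus and 7790 to 8130 CPM in control cells. The ranges of P. chinensis and B. chinense did not overlap, and for 50 of the 53 genes the mean was highest in control, intermediate with B. chinense and lowest with P. chinensis, an order that 23.5% of all genes tested showed. In bulk RNA, fewer cells in S phase and less histone mRNA per such cell cannot be told apart. Histone genes have near-identical copies, between which the authors' counting may split reads, so values for single copies are uncertain. H4C14 and H4C15 hold the same count in every A549 library, at a log2 difference of −0.70 (adjusted p = 0.0623).

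**Figure D3:**
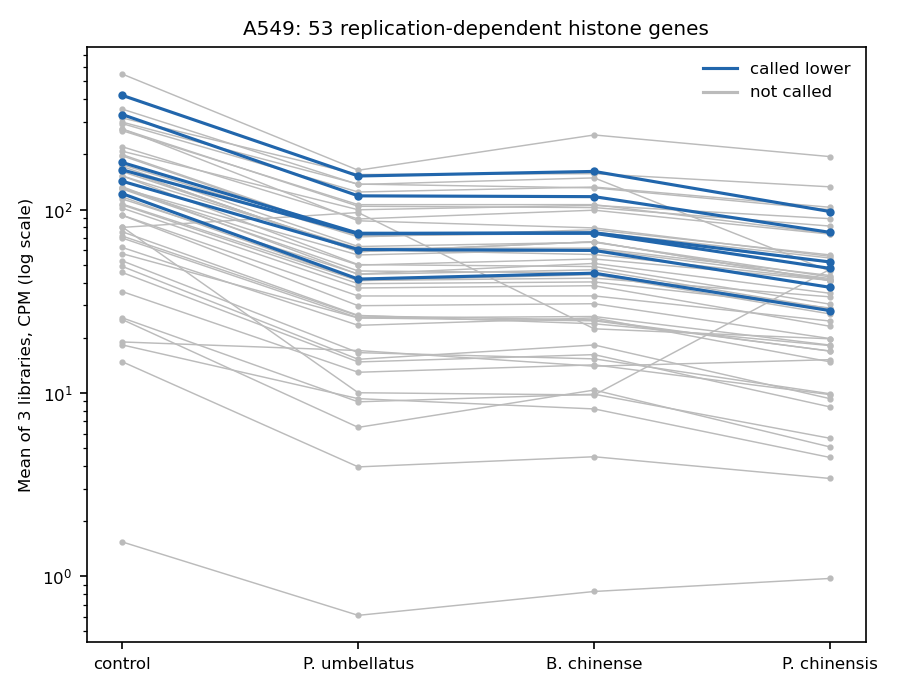
Mean CPM of 3 libraries on a log scale for 53 replication-dependent histone genes in the 4 A549 groups, 1 line a gene, with the 6 genes called lower in blue. Nearly all lines fall from control to either B. chinense or P. umbellatus and are lowest with P. chinensis.

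Some genes of DNA replication and repair were also called lower. MSH6, which recognises mismatches in newly copied DNA, measured 94.7, 102 and 89.6 CPM with P. chinensis and 136, 134 and 162 CPM with B. chinense (log2 difference −0.59, edgeR adjusted p = 0.0288), with 200 ± 19 CPM in control cells. ATAD5, which unloads the sliding clamp PCNA, measured 29.3, 31.6 and 31.3 CPM against 47.1, 45.9 and 44.6 CPM (−0.58, adjusted p = 0.0336). TK1, the thymidine kinase of the salvage pathway, measured 59.6, 59.0 and 57.9 CPM against 78.0, 81.0 and 93.3 CPM (−0.51, adjusted p = 0.0382), with 161 ± 7 CPM in control cells.

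The groups did not overlap for these genes, nor for CDC25B, a phosphatase that activates cyclin-dependent kinases, at 255 to 310 CPM against 391 to 418 CPM (log2 difference −0.47, edgeR adjusted p = 0.0336). CDC25B differed from the others in that its control mean (431 ± 19 CPM) was close to the B. chinense level. In the S phase list none of 43 genes was called by edgeR, yet 42 differences were negative, with a median of −0.27, and 22 fell below an unadjusted p of 0.05, all lower. In the G2/M list none of 54 was called, 52 were negative with a median of −0.29, and 32 fell below an unadjusted p of 0.05, all lower. Over all genes 7.44% were lower by that measure. DESeq2 called 5 S phase and 14 G2/M genes lower (1.43% of all genes), and the fit of all 12 A549 libraries 7 and 12 (0.978% of all genes). TOP2A, the topoisomerase of dividing cells, lay just outside the threshold at 354 to 451 CPM against 547 to 591 CPM (−0.47, adjusted p = 0.0553), as did MCM4, a subunit of the replicative helicase, at 135 to 152 CPM against 182 to 186 CPM (−0.33, adjusted p = 0.058). MKI67, the proliferation marker, was at 247 to 302 CPM against 366 to 442 CPM (−0.49, adjusted p = 0.062). AURKA, a mitotic kinase, was an exception at 84.1 to 93.5 CPM against 89.8 to 96.1 CPM (−0.06, adjusted p = 0.736), although its control level was 178 ± 6 CPM. The order control, B. chinense, P. chinensis from high to low held for 42 of 43 S phase and 51 of 54 G2/M genes.

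**Figure D4:**
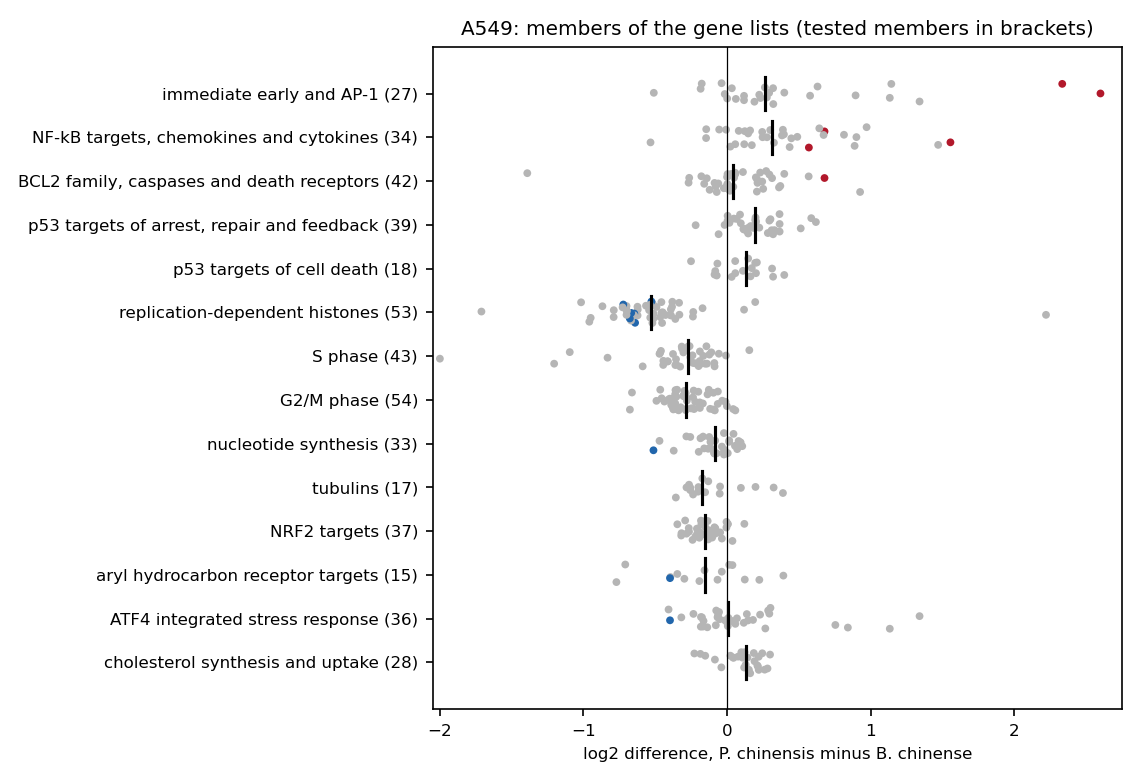
Log2 differences, P. chinensis minus B. chinense, of the tested members of 14 gene lists, 1 point a gene, with the list's median as a black bar and called genes in colour (red higher, blue lower, grey not called; values below −2 are drawn at −2). The histone, S phase and G2/M medians lie below 0 at −0.53, −0.27 and −0.29, and the NF-kB and immediate early medians above 0 at 0.31 and 0.26.

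The remaining genes called lower encode transporters, Wnt receptors and others. SLC7A5, a carrier of large neutral amino acids into the cell, measured 2333, 2234 and 2091 CPM with P. chinensis and 2819, 2921 and 3028 CPM with B. chinense (log2 difference −0.40 ± 0.05, edgeR adjusted p = 0.0217), with 3517 ± 214 CPM in control cells. edgeR called no other member of the 36 ATF4 targets, whose median was 0.00, or of the 15 aryl hydrocarbon receptor targets, whose median was −0.16, against 0.147% of all genes called lower. In the ATF4 list DESeq2 called 3 higher and 3 lower (0.684% and 1.43% of all genes). The fit of all 12 A549 libraries called 3 higher and 1 lower (0.456% and 0.978% of all genes). Within the ATF4 list DDIT3, which promotes death under lasting stress, pointed the other way at 10.2 to 21.1 CPM against 5.57 to 6.74 CPM (1.34, adjusted p = 0.0763), as did PPP1R15A, which restores translation, at 60.8 to 88.0 CPM against 37.8 to 45.9 CPM (0.75, adjusted p = 0.0669).

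The aryl hydrocarbon receptor binds planar aromatic ligands and induces xenobiotic enzymes. Its target CYP1B1 measured 232, 213 and 236 CPM with P. chinensis and 279, 410 and 429 CPM with B. chinense, above the control mean of 99.1 ± 5.9 CPM with either herb. The groups did not overlap, but the spread among the B. chinense libraries was wide and the log2 difference of −0.71 missed the threshold (edgeR adjusted p = 0.0672). AHRR, the repressor of the receptor, was at 11.7 to 14.2 CPM against 19.3 to 24.6 CPM (−0.77, adjusted p = 0.0717), and ALDH3A1, an aldehyde dehydrogenase, at 2436 to 3051 CPM against 3439 to 3686 CPM (−0.35, adjusted p = 0.0802), both also above control with either herb. DESeq2 called 5 of the 15 lower and 1 higher, and the fit of all 12 A549 libraries 5 lower and none higher, against 1.43% and 0.978% of all genes called lower by these fits.

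LGR4, a receptor for R-spondins, and LRP5, a Wnt co-receptor, were lower by log2 differences of −0.34 (edgeR adjusted p = 0.025) and −0.44 (adjusted p = 0.0382). ID1, an inhibitor of helix-loop-helix factors induced by BMP signals, measured 180, 188 and 179 CPM with P. chinensis and 244, 240 and 232 CPM with B. chinense (−0.39 ± 0.05, adjusted p = 0.0217). Its control mean of 208 ± 4 CPM lay between these herbs, and its P. umbellatus level of 153 ± 12 CPM was below both. PEG10, an imprinted gene derived from a retrotransposon, measured 139, 153 and 135 CPM against 200, 205 and 222 CPM, with 351 ± 8 CPM in control cells (−0.55 ± 0.06, adjusted p = 0.0217).

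SLC50A1, a sugar transporter, had the largest fall among genes called lower and measured 13.1, 11.7 and 11.9 CPM against 23.2, 22.3 and 20.2 CPM (log2 difference −0.84 ± 0.13, edgeR adjusted p = 0.0414). Unlike most of the others it was lowest in control cells, at 8.17 ± 3.001 CPM, and so was COL18A1, the collagen whose fragment is endostatin, at 178 ± 20 CPM in control, 196 to 231 CPM with P. chinensis and 271 to 295 CPM with B. chinense (−0.40, adjusted p = 0.0444). PCDH9, a protocadherin, PTMS, a small acidic nuclear protein, and IER5L were also called lower, by −0.48, −0.38 and −0.42.

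The control level placed the genes in a simple way. For 8 of the 13 genes called higher the control mean was below both herb means, for 5 it lay between them and for none was it above both. For 15 of the 20 genes called lower it was above both, for 3 between and for 2 below. Among genes not called it was above both for 38.8%, below both for 43.8% and between for 17.4%. No test was made on these counts.

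The study's p53 and E2F account rests mainly on P. chinensis against control and on proteins measured by western blot. Further parts are predicted transcription factors, a match to expression profiles of MDM2-p53 inhibitors, and docking of a P. chinensis compound to MDM2. The study also reports gene set enrichment of P. chinensis against the other herbs, with E2F and G2/M sets lower and p53 and apoptosis sets higher. The genes it discusses were at least in part chosen on these samples, so their directions are not independent evidence. As single RNAs, a measure unlike those, none of the 20 was called between the herbs by edgeR, where 0.243% of all genes were. A call this rare would be absent from most lists of 20. At an unadjusted p below 0.05, 4 were higher and 6 lower (5.95% and 7.44% of all genes). DESeq2 and the fit of all 12 A549 libraries each called 1 higher and 1 lower. MDM2, the p53 antagonist, came nearest. It measured 1086, 1037 and 1130.3 CPM with P. chinensis and 914, 834 and 775 CPM with B. chinense, far above the control mean of 274 ± 4 CPM in every herb library. The groups did not overlap and the difference was 1.29-fold (log2 0.37 ± 0.06, edgeR adjusted p = 0.0553). MDM2 passed the threshold with upper quartile factors (adjusted p = 0.0474), with all 12 A549 libraries (0.00657) and in DESeq2 (1.71e-07).

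CDKN1A, the p21 inhibitor of cyclin-dependent kinases, measured 472, 444 and 469 CPM against 421, 431 and 423 CPM, with 78.5 ± 12.6 CPM in control cells (log2 difference 0.12 ± 0.04, edgeR adjusted p = 0.257). Of 39 p53 targets of arrest, repair and feedback 36 were positive with a median of 0.20. None was called by edgeR (19 higher at an unadjusted p below 0.05, against 5.95% of all genes), and DESeq2 called 2 higher (0.684% of all genes). The fit of all 12 A549 libraries also called 2 higher (0.456% of all genes). BTG2, an antiproliferative gene, was at 71.8 to 81.7 CPM against 60.2 to 65.1 CPM, with 14.8 ± 0.2 CPM in control cells (0.32, adjusted p = 0.11). Of 18 p53 targets of cell death 13 were positive with a median of 0.13, and none was called by edgeR or DESeq2. At an unadjusted p below 0.05, 8 were higher, against 5.95% of all genes. The fit of all 12 A549 libraries called 1 higher (0.456% of all genes). BAX, which permeabilises mitochondria, was at 185 to 187 CPM against 184 to 203 CPM, and BBC3, an inhibitor of BCL2 proteins, at 14.9 to 16.5 CPM against 15.5 to 17.8 CPM, so that in both cases the groups overlapped. Their log2 differences were slightly negative (−0.07 and −0.09), unlike those of most of the list. Among the 13 positive members were FAS (0.40, edgeR adjusted p = 0.337) and PMAIP1 (0.31, adjusted p = 0.327).

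On the E2F side, E2F1, the activator of S phase genes, measured 31.5, 28.3 and 24.9 CPM with P. chinensis and 36.0, 35.1 and 40.1 CPM with B. chinense, without overlap (log2 difference −0.39 ± 0.11, edgeR adjusted p = 0.154). Control cells held 72.2 ± 4.7 CPM. MYBL2, which drives G2/M genes with FOXM1, was at 47.0 to 62.5 CPM against 67.8 to 84.7 CPM (−0.48, adjusted p = 0.112), and was called by DESeq2 (0.0106) and with all 12 A549 libraries (0.0306). TFDP1, the DNA-binding partner of E2F1, was at 64.5 to 71.9 CPM against 71.0 to 75.4 CPM (−0.12 ± 0.07, adjusted p = 0.497), and E2F7, a repressor, at 32.1 to 36.6 CPM against 33.2 to 39.0 CPM (−0.10 ± 0.10, adjusted p = 0.732). Both overlapped between the groups. MYC was at 172 to 211 CPM and 183 to 193 CPM, with a log2 difference of −0.02 ± 0.08.

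Among 42 genes of the BCL2 family, caspases and death receptors edgeR called only BIRC3, against 0.0956% of all genes called higher, while DESeq2 called 3 higher (0.684% of all genes) and the fit of all 12 A549 libraries 2 (0.456%). CASP8, the initiator caspase of death receptors, was at 48.2 to 59.2 CPM against 35.4 to 56.4 CPM, and FADD, its adaptor, at 52.5 to 55.8 CPM against 52.8 to 56.2 CPM. CFLAR, which blocks CASP8, was at 277 to 299 CPM against 228 to 256 CPM (log2 difference 0.25, edgeR adjusted p = 0.102), and MCL1, a survival protein of the BCL2 family, at 265 to 288 CPM against 226 to 255 CPM (0.21, adjusted p = 0.143). The list's median was 0.04, and 29 of 42 differences were positive.

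The same pair of extracts was compared in Huh7 cells, whose libraries are separate from those of A549. In a model of both lines on 12948 genes, edgeR called 2678 genes in Huh7 (20.7%) and 401 in A549 (3.1%). The fit of the 6 A549 libraries alone had called 33 (0.243%). The Huh7 libraries held 13259204 to 24340250 counts with P. chinensis and 9526159 to 11546100 with B. chinense, so depth differed by herb in that line, and its part in these counts was not tested. Of the 13 genes higher in A549, 12 had the same sign in Huh7 and 8 were called the same way there, against 10.3% of all genes called higher in Huh7. Of the 20 lower, 13 had the same sign, 12 were called the same way and 2, SLC7A5 and PCDH9, were called the other way, against 10.4% of all genes called lower in Huh7. The same sign was seen for 59.1% of all genes.

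CXCL8 was higher with P. chinensis than with B. chinense in both lines, with log2 differences of 1.55 ± 0.20 in A549 and 1.68 ± 0.13 in Huh7 (82.1 to 90.8 CPM against 22.9 to 30.0 CPM), an interaction of −0.13 ± 0.24 (edgeR adjusted p = 0.83). FOSB was higher in Huh7 as well, at 29.8 to 31.5 CPM against 8.40 to 10.1 CPM (1.77 ± 0.26), and the lines did not differ past the threshold (0.83 ± 0.41, adjusted p = 0.273). All 6 histone genes were called lower in Huh7 too, H2BC17 by −0.62 ± 0.06. No histone gene of the 53 tested in both lines was called for a difference between them, where 6.31% of all genes were.

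Other genes called in A549 differed between the lines. The interaction was called for 817 genes (6.31%). EGR1 was higher with P. chinensis in both lines, by 0.79 ± 0.19 in Huh7, and the excess in A549 was 1.55 ± 0.33 (edgeR adjusted p = 0.0139). BIRC3 was at 10.9 to 11.2 CPM against 2.33 to 3.38 CPM in Huh7, a larger difference (1.85 ± 0.17) from a lower level than in A549 (interaction −1.18 ± 0.19, adjusted p = 0.0022). ITGA2 lay close together in Huh7, at 123 to 126 CPM with P. chinensis and 126 to 130 CPM with B. chinense (−0.03 ± 0.06), and its interaction was 0.53 ± 0.09 (adjusted p = 0.0029). SLC7A5 was lower with P. chinensis in A549 and higher in Huh7, at 585 to 613 CPM against 511 to 559 CPM (interaction −0.58 ± 0.07, adjusted p = 0.000119). ID1 did not differ in Huh7 beyond its spread (0.00 ± 0.05). PAPPA was near the limit of detection in Huh7, with 14, 11 and 7 counts with P. chinensis and 0 in all B. chinense libraries, and no fold is given there.

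**Figure D5:**
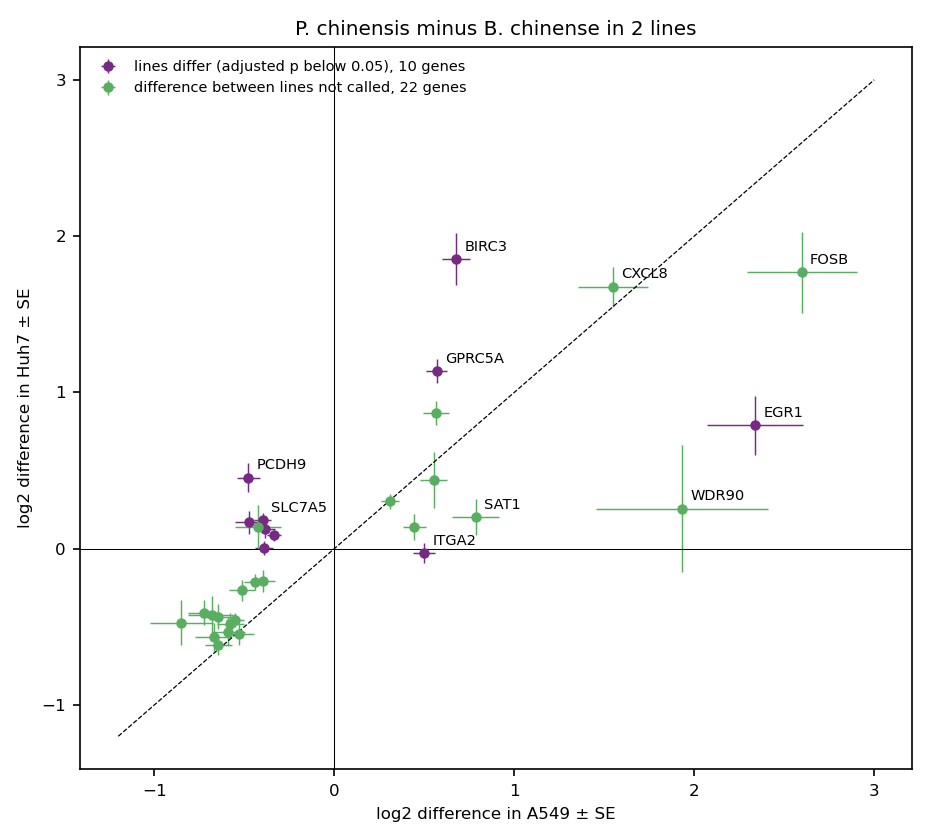
Log2 difference, P. chinensis minus B. chinense, in A549 and in Huh7 for 32 of the 33 called genes (PAPPA left out), with SE bars and the line of equality dashed. The lines differed for 10 genes and the difference was not called for 22, among them CXCL8 and FOSB, and SLC7A5 and PCDH9 lie on opposite sides of 0 in the 2 lines.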

How the data were processed

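RNA from A549 and Huh7 cells in 4 groups of 3 libraries each was sequenced by the authors as paired ends from rRNA-depleted total RNA. The authors estimated counts with kallisto against GRCh38.p13 transcripts and deposited a table of expected counts per gene, as whole numbers and without normalization, for protein-coding genes with a mean above 5. How transcripts were summed per gene is not given in the sources used here. In the GENCODE annotation used here for positions, 1 gene of the table had no entry, and it stayed in.

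Genes with a mean count above 5 over the 6 libraries compared were fitted in edgeR 4.0.16 (R 4.3.3; TMM, prior count 0.125, quasi-likelihood test, two-sided, no replicate block) and called at a Benjamini-Hochberg adjusted p below 0.05. Standard errors came from the same fit. The lines were compared in 1 model of 12 libraries. CPM values of A549 were TMM-normalized over the A549 libraries. Those of Huh7 were normalized over its P. chinensis and B. chinense libraries, so each line was scaled separately. Depth was 6803704 to 10570251 counts per library compared. The error printed is the SE of the fit for log2 differences and the SD between replicates for CPM means.

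Genes named are the 10 largest rises and falls that average 50 counts or more and do not overlap, the 5 lowest p each way, called members of lists, and the genes the study names, with list members beside them, and a few genes of this rule are not reported here. The members and lists were chosen with earlier results of these data known. Lists are described by counts and medians only. Alternatives were DESeq2 1.42.0, its size factors, upper quartile factors, other filters, all 12 A549 libraries, a replicate block, a minimum log2 difference of 1 and leaving out each library. The scripts were tested on simulated data.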

Additional observations from a re-analysis of the deposited data

Results flagged for a closer look

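The difference between P. chinensis and B. chinense differed between A549 and Huh7 by edgeR's test of the interaction for 817 genes. Values are the log2 difference in A549 minus that in Huh7. Those above 0 were 1.55 for EGR1, 0.64 for MDM2 and 0.53 for ITGA2. MDM2 was higher with P. chinensis in A549 by 0.36 ± 0.05 and lower in Huh7 by a log2 difference of −0.28 ± 0.06, at 234 to 244 CPM against 286 to 298 CPM there. The lines also differ in p53 status, whose part in this was not tested.

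Those below 0 were −1.18 for BIRC3 and −0.57 for GPRC5A, both called higher in each line, and −0.93 for PCDH9 and −0.58 for SLC7A5, both called lower in A549 and higher in Huh7. Values for CDC25B (−0.64), PTMS (−0.51), LGR4 (−0.42) and ID1 (−0.39) belong to genes called lower in A549 and not called in Huh7. TP53I3 (−0.37) was not called in A549 and was higher in Huh7, and its call was lost when some single libraries were left out.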

How the results depend on the processing

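All 33 called genes had the same direction under every alternative. Since their groups did not overlap, leaving out 1 library could hardly have reversed it. The counts of genes called higher and lower, 13 and 20, became 93 and 194 with DESeq2, 62 and 133 with all 12 A549 libraries in the fit, and 4 and 0 with a minimum absolute log2 difference of 1. With RLE factors, upper quartile factors or other filters on low counts they stayed between 13 and 14 higher and 18 and 20 lower. Leaving out 1 library gave 0 to 12 higher and 0 to 13 lower. With the replicate block they were 7 and 4. In the model of both lines, which tested 12948 genes, edgeR called 401 in A549 in either direction. The deviations of same-numbered libraries correlated by −0.08 to 0.01, and those of differently numbered ones by −0.04 to 0.09. With 3 libraries a group this cannot show whether same-numbered libraries share a culture or batch. The labels give no pairing, so the block is given only here. The causes of the larger counts with DESeq2 and in the model of both lines were not tested. The interaction was called for 559 to 1081 genes over all alternatives. Some values near 0 changed sign. Leaving out 1 library gave −0.014 to 0.46 for NFKB1, −0.0044 to 0.066 for RELA, −0.013 to 0.034 for FADD and −0.12 to 0.034 for MYC, and upper quartile factors gave 0.00082 for MYC. No scaling moved the median of all genes by as much as 0.02. Low counts limit CXCL8, which rested on 19 to 140 counts per library compared, and WDR90, on 9 to 64.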

Other observations

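H3C14 and H3C15, near-identical histone H3 genes, pointed in opposite directions. H3C14 measured 21.8, 35.5 and 84.6 CPM with P. chinensis and 9.72, 19.5 and 0 CPM with B. chinense, and H3C15 66.2, 66.8 and 5.35 CPM against 138, 124 and 185 CPM. Their sum was steadier, at 88.0, 102 and 89.9 CPM with P. chinensis and 148, 143 and 185 CPM with B. chinense, against 408 to 458 CPM in control cells. How the counts were divided between the copies was not tested.

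NRF2 targets, genes of antioxidant defence, were lower with P. chinensis than with B. chinense for 33 of 37 members, with a median log2 difference of −0.15. None was called by edgeR (17 lower and 1 higher at an unadjusted p below 0.05), and DESeq2 called 12 lower, where over all genes the shares lower were 7.44% and 1.43%. GCLC, the rate-limiting enzyme of glutathione synthesis, was at 186 to 199 CPM against 228 to 254 CPM (log2 difference −0.32, edgeR adjusted p = 0.0553), and NQO1, a quinone reductase, at 1735 to 1828 CPM against 2015 to 2026 CPM (−0.19, adjusted p = 0.0763). Of 17 tubulin genes 13 were negative with a median of −0.17, and DESeq2 called 6 lower, while edgeR called none (7 lower and 1 higher unadjusted). TUBA1B, an abundant alpha-tubulin, was at 1199 to 1429 CPM against 1660.2 to 1743 CPM (−0.36, adjusted p = 0.0553).

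Cholesterol synthesis and uptake genes were positive for 23 of 28 in A549 with a median of 0.13, and none was called by edgeR (9 higher and 1 lower unadjusted) and 1 by DESeq2, where over all genes the shares higher were 5.95% and 0.684%. In Huh7 their median was −0.51, edgeR called 22 of 28 lower (10.4% of all genes were), and 19 were called for a difference between the lines (6.31% of all genes).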
